A study of Mus musculus with 13 samples.

Results

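A set of 821 open chromatin regions was studied in newborn mouse kidney: regions open in nephron progenitors (NP) that were also open in podocytes (Podo) and low in the proximal tubule and the loop of Henle (LOH). They were found in single-nucleus ATAC-seq, which marks for each nucleus which regions of the genome a transposase could enter. For every cell type of the deposited annotation the open calls of all P0 nuclei were summed and scaled to counts per 1000000 open calls (CPM). A peak was kept when it had at least 10 CPM in NP, at least 0.5 times the NP value in Podo, and at most 0.333 times the NP value in both the convoluted proximal tubule (PCT) and LOH. Of all 300755 peaks, 24474 reached the NP minimum, and the 821 members were 3.35% of those. The members were chosen by their P0 levels in NP, Podo, PCT and LOH, so these P0 levels are described without a test.

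The nuclei came from whole kidneys of 2 samples of newborn mice (P0), 1 at 3 weeks (P21) and 2 at 8 weeks (P56). The P21 and P56 samples are called adult below. No sample carried a treatment, a transgene or a mutation in its labels, and strain and sex were not given there. Sample labels did not say more about separate animals, so the p-values below measure the spread between these samples, which may be technical.

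Nephron progenitors sit in caps around the tips of the branching ureteric bud and give rise to all epithelial segments of the nephron, among them podocytes, proximal tubule and loop of Henle. Podocytes wrap the glomerular capillaries with interlocking foot processes, which the slit diaphragm bridges to form the final layer of the filter. The zinc finger factor WT1 is made in progenitors and remains high in podocytes, while tubule cells lose it. Distal enhancers are stretches of DNA away from gene starts that are commonly open in the cell types that use them.

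The central 300 bases of 6 members are shown because later results turn on them: 3 of the 4 members with the highest podocyte level, and 1 member each beside Wt1, Foxl1 and Vegfa. They are plus-strand GRCm38 (mm10) sequence, and capitals mark the WT1-type motif GTGGGNG on either strand (read as CNCCCAC on the minus strand) and the E-box CAGCTG, which is the same on both strands. The members lie in an intron of Pcsk6, 180 kb upstream of Gmds, 118 kb downstream of the Trib2 start, 63.2 kb upstream of Wt1, 131 kb downstream of the Foxl1 start in an exon of the predicted gene Gm20388, and 72.5 kb upstream of Vegfa.
Pcsk6 member, chr7:65902638-65902937: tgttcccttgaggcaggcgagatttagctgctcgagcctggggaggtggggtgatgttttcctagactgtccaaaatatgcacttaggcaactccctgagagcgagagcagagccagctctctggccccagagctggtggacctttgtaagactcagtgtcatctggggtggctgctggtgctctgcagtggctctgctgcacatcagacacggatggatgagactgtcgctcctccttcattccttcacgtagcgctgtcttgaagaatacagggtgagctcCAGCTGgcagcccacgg
Gmds member, chr13:32518925-32519224: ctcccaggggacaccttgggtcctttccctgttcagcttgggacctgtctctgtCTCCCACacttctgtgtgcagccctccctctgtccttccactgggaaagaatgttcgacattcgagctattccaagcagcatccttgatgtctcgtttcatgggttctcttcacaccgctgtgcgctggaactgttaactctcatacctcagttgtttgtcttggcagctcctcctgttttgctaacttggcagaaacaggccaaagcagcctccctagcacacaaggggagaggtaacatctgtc
Trib2 member, chr12:15698749-15699048: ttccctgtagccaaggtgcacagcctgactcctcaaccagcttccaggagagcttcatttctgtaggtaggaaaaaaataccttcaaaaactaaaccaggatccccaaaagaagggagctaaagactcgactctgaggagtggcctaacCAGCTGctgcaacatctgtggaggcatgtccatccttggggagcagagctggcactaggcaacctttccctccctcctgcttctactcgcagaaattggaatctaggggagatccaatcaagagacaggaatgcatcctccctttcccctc
Wt1 member, chr2:105063180-105063479: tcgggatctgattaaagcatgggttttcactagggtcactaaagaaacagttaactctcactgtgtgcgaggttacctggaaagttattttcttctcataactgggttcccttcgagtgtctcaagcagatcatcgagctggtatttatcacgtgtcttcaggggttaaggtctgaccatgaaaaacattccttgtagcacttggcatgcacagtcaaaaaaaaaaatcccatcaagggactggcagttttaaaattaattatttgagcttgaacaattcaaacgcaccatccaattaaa
Foxl1 member, chr8:121258479-121258778: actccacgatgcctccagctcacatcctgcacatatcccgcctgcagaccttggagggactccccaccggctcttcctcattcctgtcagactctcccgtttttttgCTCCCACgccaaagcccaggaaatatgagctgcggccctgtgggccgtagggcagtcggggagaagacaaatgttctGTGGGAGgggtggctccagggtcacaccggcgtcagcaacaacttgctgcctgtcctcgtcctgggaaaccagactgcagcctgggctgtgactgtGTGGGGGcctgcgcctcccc
Vegfa member, chr17:46104683-46104982: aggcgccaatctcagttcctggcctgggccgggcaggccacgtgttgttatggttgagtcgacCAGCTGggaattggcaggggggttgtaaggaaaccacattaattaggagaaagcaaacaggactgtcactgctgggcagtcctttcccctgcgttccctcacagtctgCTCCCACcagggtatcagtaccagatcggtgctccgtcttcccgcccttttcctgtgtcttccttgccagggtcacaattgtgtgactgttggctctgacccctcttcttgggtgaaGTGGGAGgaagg
The Foxl1 member held 3 copies of GTGGGNG, the Vegfa member 2 copies of it and 1 CAGCTG, the Gmds member 1 GTGGGNG, and the Pcsk6 and Trib2 members 1 CAGCTG each. The Wt1 member held neither motif in this window.

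Depth set the precision of each level. The 2 P0 samples held 5993 and 5436 nuclei and 38953624 to 39508633 open calls each, and the 3 adult samples 3361 to 7129 nuclei and 16980853 to 43794155 open calls. At P0 there were 2037 NP nuclei and 669 podocytes, and 10 CPM stood for 141 open NP nuclei and 31.2 open podocytes. In the adult samples there were 243 podocytes (47, 157 and 39) and 195 nuclei annotated NP, and 10 CPM stood for 9.10 open podocytes. The starts of NP marker genes were lower in the adult NP nuclei than in the P0 NP nuclei. They had 1.08 CPM at Six2 against 56.7 CPM at P0, 4.31 CPM at Eya1 against 24.3 CPM and 9.70 CPM at Uncx against 21.1 CPM. The adult group is therefore called NP only by its annotation. Most podocyte marker starts were open in P0 podocytes, with 61.5 CPM at the Podxl start, 75.2 CPM at Wt1 and 25.9 CPM at Nphs1, while the Synpo start had 1.28 CPM. The Podxl, Wt1 and Nphs1 starts had 10.7, 54.3 and 9.82 CPM in the P0 NP nuclei, and their part in the members' NP levels was not tested. Starts of NP marker genes were in turn open in part in P0 podocytes. They had 28.5 CPM at Eya1 (24.3 in NP), 23.7 at Six2 (56.7) and 20.5 at Cited1 (26.0). Uncx had 8.32 CPM (21.1 in NP) and Osr1 3.84 CPM (6.19). Their part in the members' Podo levels was not tested. Of 27834 distinct barcodes, 477 occurred in more than 1 sample.

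Across the 821 members the median P0 level was 14.7 CPM in NP (quartiles 12.0 to 20.3) and 14.4 CPM in Podo (9.60 to 24.3, range 5.12 to 95.1). The medians were 1.22 CPM in PCT and 3.23 CPM in LOH. A lower CPM cannot tell fewer nuclei open at a peak from more open calls per nucleus elsewhere in the genome. The 24474 peaks that met the NP minimum as a whole had medians of 19.1 CPM in NP, 17.6 in Podo, 12.9 in PCT and 17.4 in LOH, so the typical open NP peak was open in tubules as well. The 2 P0 samples gave similar member medians, 15.1 and 14.1 CPM in NP and 15.5 and 13.6 CPM in Podo. At 527 of the 821 members both samples met the rule when each was taken alone, and at 33 neither did. Members divided by their Podo to NP ratio, whose median was 0.877: 490 were lower in Podo than in NP, 241 were from equal to 2-fold higher, and 90 were at least 2-fold higher, up to 5.69-fold.

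**Figure D1:**
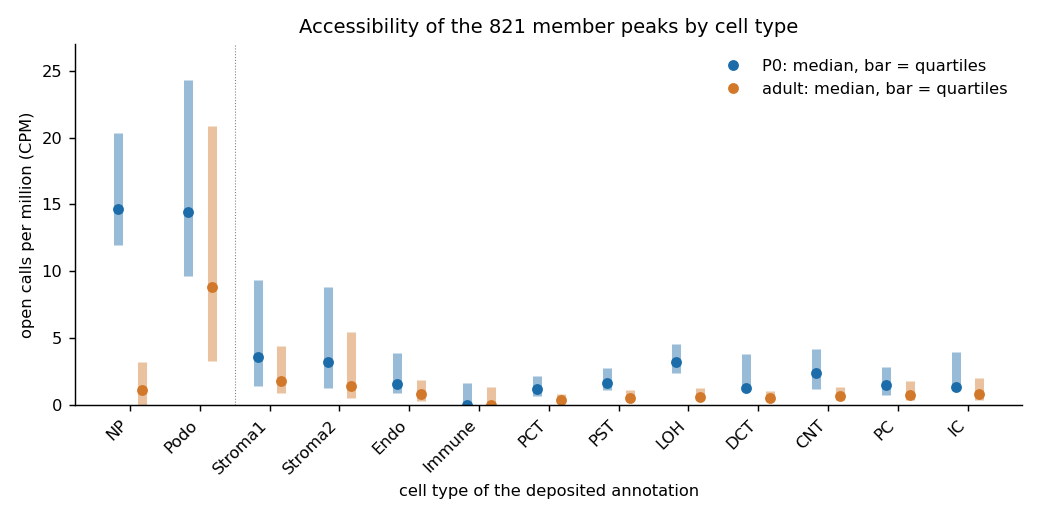
Levels of the 821 members in each annotated cell type at P0 and in the adult samples, in CPM. At P0, NP and Podo medians are 14.7 and 14.4 CPM and no other type has a median above 3.55 CPM; in the adult samples the Podo median is 8.79 CPM and the highest other median is 1.77 CPM.

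Values ran on without a gap across each limit of the rule. The members just above the NP minimum, nearest Tlr5, Smtn and Shisa6, all had 10.0 CPM, and the peaks just below it, among them those nearest Galnt10 and Ktn1, had 9.96 CPM. At the podocyte limit the members nearest Tbc1d4, Mgp and Prtg had ratios that rounded to 0.5, and those nearest Grin2b, Kif26b and Gimd1 missed it at 0.498 to 0.499. At the PCT limit the last members (Spsb4, Atxn1 and Tmpo) had 0.319 to 0.330 times the NP value and the first peaks outside (Rnf114, Wdr19 and Abcb9) 0.335 to 0.342 times. At the LOH limit the last members (Vav2, Dmac1 and Pitpnc1) had 0.332 to 0.333 times the NP value, and the peaks outside (Arhgef10l, Daam1 and Runx2) 0.334 to 0.335 times. The LOH limit alone kept out 1936 peaks, the PCT limit alone 96.

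The members with the highest podocyte level were led by an intron of Pcsk6, a proprotein convertase gene (chr7:65902322-65903253). It had 99.3 and 92.1 CPM in podocytes of the 2 P0 samples and 98.6, 92.7 and 49.5 CPM in those of the P21 and the 2 P56 samples. In NP it had 26.1 and 27.7 CPM at P0 and 8.65, 12.2 and 19.0 CPM in the adult samples, and in PCT it had 4.70 and 4.19 CPM and then 0.463 to 0.929 CPM. Podocytes were above NP and PCT in all 5 samples, with no overlap. In the adult samples, which the rule did not use, its level was higher in podocytes than in proximal tubule (log2 fold change 5.07, SE 0.38, edgeR adjusted p = 7.12e-21) and than in the nuclei annotated NP (2.55, SE 0.49, edgeR adjusted p = 4.88e-05). These values, like those of the members named below, are from a fit with a filter on low counts that members passed mainly through podocytes. Without the filter they were 4.08 (edgeR adjusted p = 8.31e-23) and 2.66 (edgeR adjusted p = 7.13e-05).

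The Trib2 member (chr12:15698306-15699490), in an annotated intron outside coding genes and 118 kb from the start of this pseudokinase gene, showed the widest gap between podocytes and adult NP nuclei among the leading 4. Podocytes had 86.1 and 72.5 CPM at P0 and 156, 101 and 107 CPM in the adult samples. NP nuclei had 58.8 and 50.3 CPM at P0 and 0, 3.05 and 0 CPM in the adult samples. The log2 fold change of adult podocytes over proximal tubule was 7.42 (SE 0.43, edgeR adjusted p = 1.67e-26), and 6.42 without the filter (edgeR adjusted p = 1.96e-45). In adult NP 1 open call was found against 104 in podocytes, a ratio of CPM of 106 with an exact interval of 18.6 to 4230 that covers counting error only.

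The member 180 kb upstream of Gmds, an enzyme of fucose synthesis, had a higher level than these in adult nuclei annotated NP (chr13:32518601-32519547). With the adult samples pooled it had 44.2 CPM there, against 14.0 CPM at the Pcsk6 member and 1.08 CPM at the Trib2 member. Podocytes had 83.0 and 76.3 CPM at P0 and 83.0, 94.8 and 86.6 CPM in the adult samples, and NP nuclei 36.4 and 36.7 CPM and then 30.3, 57.9 and 40.7 CPM. The groups did not overlap. The log2 fold change of podocytes over NP in the adult samples was 1.08 (SE 0.36, edgeR adjusted p = 0.0241), a call that was lost without the filter on low counts (edgeR adjusted p = 0.0563).

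Of the 10 members with the highest podocyte level, 2 had the widest gap between Podo and NP at P0. The Foxd2 member (chr4:114869797-114870698, 38.6 kb downstream of the start of a forkhead factor gene) had 11.5 CPM in NP of both P0 samples against 60.5 and 69.2 CPM in Podo, and 72.6, 69.5 and 66.0 CPM in adult podocytes. The intronic Srgap1 member (chr10:121955730-121956424), in a gene for a GTPase regulator that binds Robo receptors, had 12.6 and 13.3 CPM in NP against 59.7 and 69.2 CPM in Podo. In adult podocytes it had 67.5, 77.9 and 53.6 CPM, and no open call among adult NP nuclei, so it was at least 21.4-fold higher (against 3 counts over the group). The other members of the 10 lay beside Foxl1, Gsap, Bbox1, Myl7 and Lpin2. Stromal and endothelial calls at the 10 are given further below.

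**Figure D2:**
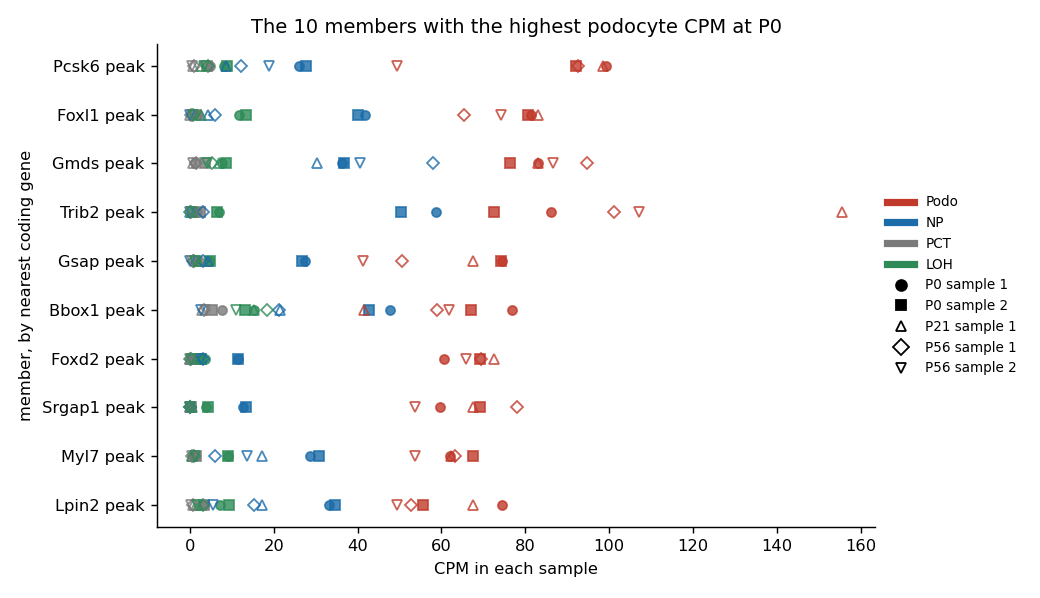
Levels of the 10 members with the highest podocyte level at P0, in each sample, in CPM, for podocytes, NP, PCT and LOH. Pcsk6, at the top, has 99.3 and 92.1 CPM in P0 podocytes, and Trib2 has 156 CPM in the P21 podocytes.

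Nuclei of both ages were clustered together by the paper on their open chromatin, so adult cell labels are not independent of the P0 data. The podocyte level after birth was then read from the 3 adult samples. The median member level in podocytes was 8.79 CPM (quartiles 3.30 to 20.9), and 459 members (55.9%) had at least 0.5 times their P0 podocyte level. A further 59 had no open call in any of the 243 adult podocytes, at a depth where 3 counts stand for 3.30 CPM. Neither count was made for other peaks. Median podocyte levels at P0 and in the adult samples were 17.6 and 14.3 CPM over the NP-open peaks and 0.640 and 0 CPM over all peaks. Adult levels followed the P0 ratio: members lower in Podo than in NP at P0 had a median of 4.40 CPM in adult podocytes, those up to 2-fold higher 17.6 CPM, and those at least 2-fold higher 39.6 CPM. The share with at least 0.5 times the P0 podocyte level was 42.4%, 71.8% and 86.7% in these classes. The classes were made from P0 podocyte values, and the classes' difference was not tested. In the adult NP nuclei 702 members had at most 0.333 times their P0 NP level. This was not counted for the NP-open peaks, whose medians were 19.1 CPM in P0 NP and 14.0 CPM in adult NP.

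**Figure D3:**
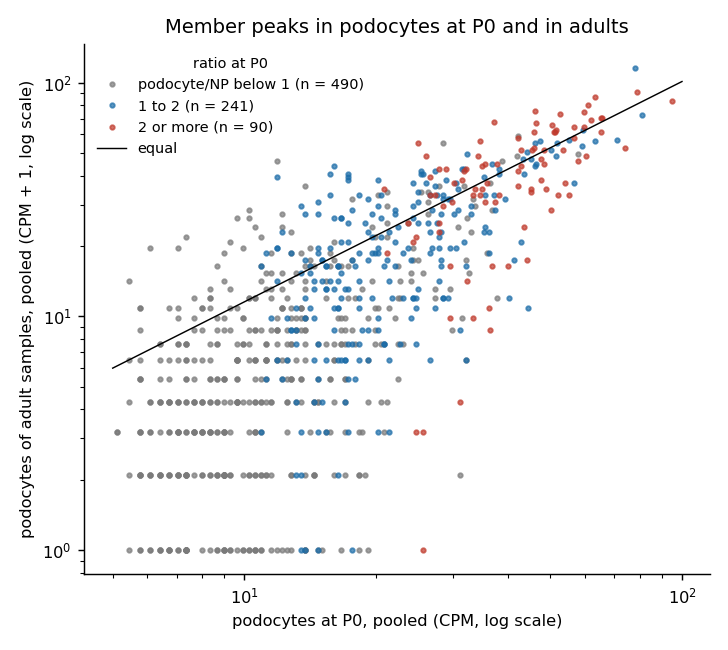
Podocyte level of each of the 821 members at P0 (x axis) and in the adult samples (y axis, CPM + 1), on log axes. The median falls from 14.4 CPM at P0 to 8.79 CPM in the adult samples, and 59 members have no open call in adult podocytes.

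In the adult samples 433 members (52.7%) were above proximal tubule in podocytes with no overlap between the 3 samples of each type, against 5.5% of all peaks and 22.2% of NP-open peaks. For LOH there were 430 (52.4%, against 5.31% of all peaks and 13.7% of NP-open peaks), and for the nuclei annotated NP 349 (42.5%, against 3.71% and 10.8%). The reverse, podocytes below in all samples, was found for 52, 13 and 16 members, against 39.3%, 16.7% and 4.71% of all peaks and 17.4%, 15.8% and 10.1% of NP-open peaks. Without a filter on low counts, edgeR called 444 of the 821 members higher in podocytes than in proximal tubule and 3 lower, beside 3.24% and 12.6% of all peaks. Against LOH 394 were higher and 1 lower, beside 2.79% and 5.32% of all peaks, and against NP 223 were higher and 1 lower, beside 1.08% and 0.541%. Of the NP-open peaks 5.79%, 5.33% and 3.17% were higher in these 3 fits, and 36.1%, 21.3% and 1.57% lower. With the filter described next, 18.01%, 11.8% and 6.97% of the NP-open peaks tested were higher, and their median log2 fold change against proximal tubule was 0.16 in place of -0.83, so the fold changes against proximal tubule depend on the filter by about that shift. In all, 364 members were higher than in both tubule types (44.3%, against 2.07% of all peaks and 3.62% of NP-open peaks), and 213 were also higher than in NP (25.9%, against 0.829% and 1.86%). In none of the 3 comparisons was a higher level called for 347 members (42.3%, against 95.9% and 91.8%).

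The filter on low counts left 293 members, and 528 were not tested there. Those tested had a median adult podocyte level of 28.6 CPM against 4.40 CPM for the rest, so a member passed mainly through the cell type in which it was high and its call is no independent support. With the filter 280 were higher and 0 lower than in proximal tubule (17.2% and 29.9% of all peaks tested), 281 and 0 against LOH (17.2% and 19.1%), and 221 and 1 against NP (9.4% and 8.56%). Without P56 sample 1, 137 of 288 members tested were higher than in NP, beside 4.32% of all peaks tested. Over the 821 members without the filter, the median log2 fold changes were 2.73, 2.87 and 2.74 against PT, LOH and NP, beside -1.96, -1.07 and 0.04 over all peaks. These fitted values depend on the prior count wherever a type had no call and are no bounds, and the median levels themselves were 8.79 CPM in adult podocytes, 0.350 CPM in PCT, 0.569 CPM in LOH and 1.08 CPM in NP. Among the members with values below, the fold changes over proximal tubule without the filter were 2.30 at the Wt1 member 63.2 kb upstream (edgeR adjusted p = 9.64e-08), 5.97 at the Foxl1 member at 114 kb (edgeR adjusted p = 1.09e-31), 4.27 at Ptpro (edgeR adjusted p = 4.28e-18) and 3.27 at Podxl (edgeR adjusted p = 2.07e-08), all on the log2 scale. The podocyte sums are in each of these comparisons, so the 3 results share samples.

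The same comparison was counted for other NP-open peaks, with no test between the sets. Of 2323 tested peaks with at most 0.333 times the NP value in Podo, PCT and LOH at P0, 39 were higher and 55 lower in adult podocytes than in proximal tubule without the filter. Of the 593 peaks kept in LOH alone by the same limits, 4 were higher and 39 lower.

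The members with the largest adult changes were picked for that fold, and they had few open calls in the cell type compared. Against proximal tubule these were the members beside Tmem125, Foxd2, Mocs1 (in an exon of Daam2, a formin gene), Frmd4b and Tmem150c. The Tmem125 member had 61 open calls in podocytes and 8 in proximal tubule, a 437-fold ratio of CPM with an exact interval of 208 to 1057. Against LOH these were the members beside Otos, Frmd4b, Pctp and Auts2 and one in an intron of Asic2, each with no LOH call and lower bounds from 51.5-fold (Auts2) to 109-fold (Otos). Against NP they were beside Cdc14a, Osbpl9, Srgap1, Rgs3 and B3galt2, each with no NP call, and their lower bounds ran from 17.7-fold (B3galt2) to 23.1-fold (Osbpl9). Fitted values over 0 calls give these members no order.

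The single member called lower in adult podocytes than in NP lies in an intron of Fntb, 51.1 kb from Max, which encodes the dimer partner of MYC (chr12:76910415-76911787). It had 18.6 and 10.4 CPM in P0 podocytes and 0, 2.11 and 0 CPM in adult podocytes. NP nuclei had 25.3 and 22.0 CPM at P0 and 17.3, 24.4 and 27.1 CPM in the adult samples. The adult groups did not overlap, and the log2 fold change was -4.28 (SE 1.06, edgeR adjusted p = 0.00173). That value is from the fit with the filter on low counts. With 1 open call in adult podocytes and 22 in adult NP nuclei, the member passed the filter through NP. Its call is therefore no independent support.

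Gene lists give the members a biological address, by nearest coding start or a start within 100 kb. Podocyte transcription factors had 10 members at 6 of 13 genes, which is 10.4% of the NP-open peaks at those genes against 3.35% at all. The Nr2f2 members among them lie at a gene the paper names for stromal cells, and the Foxd1 member is also on the stromal list. The podocyte factor list holds Foxl1, Foxc2 and Zbtb7c, and the list of signals below holds Smad2 and Efnb2. The paper had named these genes from peaks that opened towards podocytes in the P0 nuclei of this series. The shares of these lists are therefore no independent support. Without the filter 8, 6 and 6 of the 10 were higher in adult podocytes than in proximal tubule, LOH and NP, beside 54.1%, 48.0% and 27.2% of all 821 members and 3.24%, 2.79% and 1.08% of all peaks. The same shares stand beside the counts of the other lists, and no list was tested against them. Slit diaphragm, foot process and basement membrane genes had 6 members at 6 of 29 genes (4.38%), and without the filter 6, 4 and 4 were higher than in proximal tubule, LOH and NP. Nephron progenitor genes had 3 members at 3 of 19 genes (1.38%), of which 1, 1 and 0 were higher without the filter. On this list the paper had named Osr1, Gdnf, Sall1 and Pax2 from peaks that closed towards podocytes in the same P0 nuclei. The low share is therefore no independent support either. No list member was lower in podocytes in any of the adult comparisons.

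Wt1 and Foxl1 had 3 members each in this list. The Wt1 member 63.2 kb upstream (chr2:105062728-105063930), which is nearer to the start of Gm11060, had 33.1 and 26.3 CPM in NP and 45.8 and 48.5 CPM in Podo at P0, and 77.8, 44.2 and 57.7 CPM in adult podocytes. In adult NP nuclei it had 4.32, 21.3 and 2.71 CPM, and in adult PCT 7.12, 6.79 and 4.97 CPM. Podocytes did not overlap either type. It was higher in adult podocytes than in proximal tubule (log2 fold change 3.30, SE 0.39, edgeR adjusted p = 6.94e-12), LOH (5.75, SE 0.54, edgeR adjusted p = 1.60e-15) and NP (2.59, SE 0.56, edgeR adjusted p = 0.000322). Among the other Wt1 members, 1 lies 5.92 kb into the gene, in an annotated exon (chr2:105132062-105132836), with 32.5 and 32.4 CPM in P0 NP, 22.5 and 20.2 CPM in P0 Podo and 46.7, 27.4 and 16.5 CPM in adult podocytes. The member at -99.04 kb from the Wt1 start (chr2:105027105-105027866) had 17.3 and 15.0 CPM in NP, 24.8 and 27.3 CPM in Podo and 31.1, 16.9 and 33.0 CPM in adult podocytes. A further member 102 kb upstream, outside the list and chosen after its values were seen, went the other way, from 36.5 and 25.1 CPM in P0 podocytes to 10.4, 10.5 and 0 CPM in adult podocytes, and it was not called against proximal tubule (edgeR adjusted p = 0.0632). The Wt1 start itself was no member. It had 54.3 CPM in NP, 75.2 CPM in Podo and 16.5 CPM in PCT, all within the rule, but 20.6 CPM in LOH, above the LOH limit. Within 150 kb of the Wt1 start, 4 of the 15 NP-open peaks were members.

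The Foxl1 neighbourhood was similar in kind. Foxl1 and Foxc2 encode forkhead factors that lie side by side, and Gm20388 is a long predicted gene that reaches to both sides of them. The member 114 kb from the Foxl1 start (chr8:121241760-121242573) had 41.7 and 40.1 CPM in NP and 81.5 and 80.7 CPM in Podo at P0, and 83.0, 65.3 and 74.2 CPM in adult podocytes. Adult NP nuclei had 4.32, 6.09 and 0 CPM, below both P0 values, while the podocyte ranges of the 2 ages overlapped. The log2 fold change against adult proximal tubule was 6.96 (SE 0.46, edgeR adjusted p = 1.11e-23). The member at 131 kb (chr8:121258043-121259213), shown above, had 45.6 and 46.4 CPM in NP, 65.9 and 54.5 CPM in Podo and 57.1, 48.5 and 57.7 CPM in adult podocytes. In the 2 stromal clusters at P0 the 114 kb member had 6.67 and 20.1 CPM and the 131 kb member 26.6 and 15.3 CPM. Both were called higher in endothelium than in distal convoluted tubule, connecting tubule and principal cells without the filter (edgeR adjusted p = 1.58e-18 and 4.54e-06). In stroma they were likewise called higher (edgeR adjusted p = 4.58e-13 and 5.88e-37). Another member at 53.4 kb had 16.6 CPM in NP and 8.32 CPM in Podo, and was higher in both stromal clusters, at 24.8 and 39.0 CPM. Gm20388 held 8 members, the most of any gene, from chr8:120215375 to chr8:121397803, on both sides of the Foxl1 start (chr8:121127940). Gene length was not allowed for in this count.

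**Figure D4:**
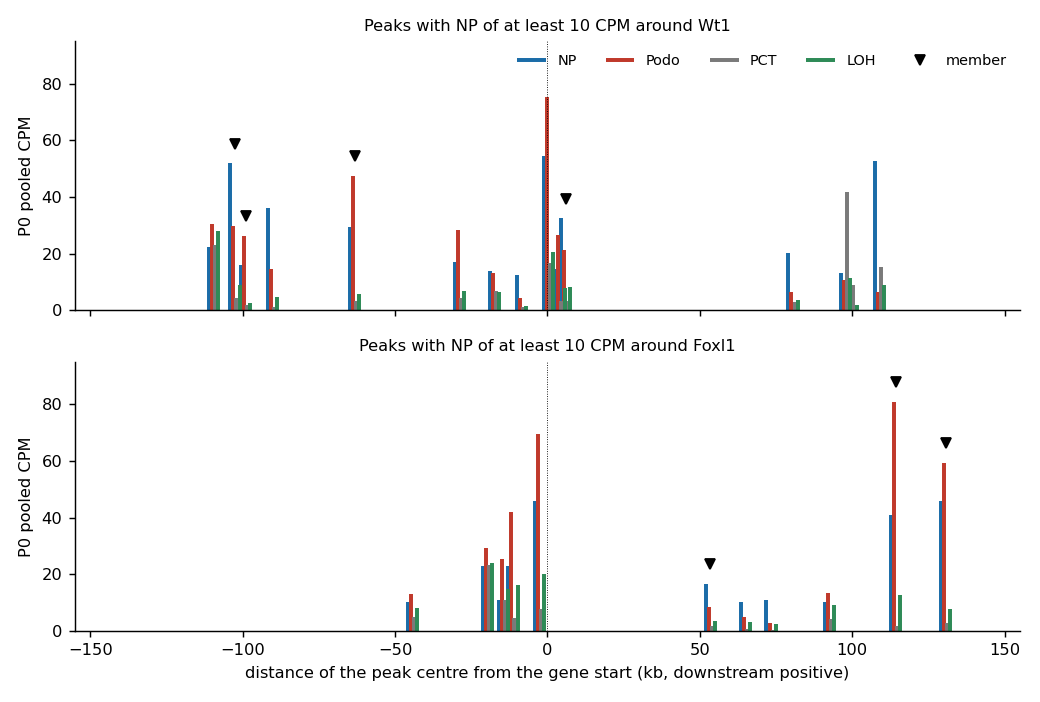
NP-open peaks within 150 kb of the Wt1 and Foxl1 starts, by distance from the start in kb (x axis) and level in CPM (y axis), with members set apart from other peaks. Of 15 peaks around Wt1, 4 are members, and of 11 around Foxl1, 3 are.

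Zbtb7c, a zinc finger gene on the same list, held 4 intronic members that were counted with Smad2, the gene of a TGF-beta mediator, because its coding start was the nearest (named with Zbtb7c after their values were seen). They had 19.9 to 28.8 CPM in P0 NP, 42.3 to 62.1 CPM in P0 Podo and 40.7 to 68.1 CPM in adult podocytes. The members at Nr2f2, a nuclear receptor gene that the paper names for stromal cells, behaved differently from these. Of the 2, the distal one 301 kb away had 19.9 CPM in P0 NP and 19.8 CPM in Podo, and the one 11.6 kb away had 17.0 and 11.2 CPM. In adult podocytes they had 9.89 and 6.59 CPM, and the nearer one was called in none of the adult comparisons (edgeR adjusted p = 0.621, 0.779 and 0.231 against PT, LOH and NP). The Osr2 member had 15.4 CPM in NP, 8.96 CPM in Podo and 2.20 CPM in adult podocytes.

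Among structural genes the highest member was 43.1 kb into Ptpro, which encodes a receptor tyrosine phosphatase of the podocyte surface (chr6:137294845-137295935). It had 25.3 and 22.1 CPM in NP, 51.2 and 60.5 CPM in Podo at P0, and 62.3, 77.9 and 37.1 CPM in adult podocytes against 0, 6.09 and 0 CPM in adult NP nuclei. Adult podocytes were higher than proximal tubule with no overlap (log2 fold change 5.26, SE 0.45, edgeR adjusted p = 5.23e-18). The member 45.7 kb from Podxl, the gene for podocalyxin (chr6:31517714-31518905), had 24.3 and 22.7 CPM in NP, 19.4 and 20.7 CPM in Podo and 20.8, 37.9 and 28.9 CPM in adult podocytes (log2 fold change over proximal tubule 4.25, SE 0.50, edgeR adjusted p = 9.36e-12). The member 16.5 kb upstream of Nphs1, which encodes nephrin of the slit diaphragm, lies in an exon of Aplp1 (chr7:30441597-30442127). It had 9.99 and 14.0 CPM in NP, 13.2 and 15.8 CPM in Podo, and 31.1, 29.5 and 28.9 CPM in adult podocytes, with no adult NP call, at least 9.18-fold higher. The Podxl and Nphs1 starts had 10.7 and 9.82 CPM in P0 NP and 61.5 and 25.9 CPM in Podo, a wider gap than at these members. The Robo2, Itga3 and Plce1 members had 8.64 to 15.4 CPM in P0 Podo and 4.40 to 15.4 CPM in adult podocytes.

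Members at nephron progenitor genes were few, and their share is no independent support, as said above. The Wnt4 and Itga8 members had 7.36 and 5.76 CPM in P0 podocytes and 1 open call each in adult podocytes. The Hoxd11 member, 31.8 kb upstream, had 19.4 and 27.8 CPM in P0 podocytes and 5.19, 19.0 and 0 CPM in adult podocytes.

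Signals and receptors had 10 members at 7 of 24 genes (5.85%), of which 6, 6 and 5 were higher in adult podocytes than in proximal tubule, LOH and NP without the filter. The share is no independent support, since the paper had named Smad2 and Efnb2 from podocyte peaks of these data. The Vegfa member (chr17:46104394-46105270), which lies nearer to Mrps18a, had one of the highest NP levels of the members named here, 58.2 and 55.95 CPM, and 32.6 and 30.5 CPM in P0 podocytes. Adult podocytes had 10.4, 12.6 and 0 CPM and adult NP nuclei 4.32, 0 and 0 CPM, so both types were below every P0 value of their own and overlapped each other. It did not pass the filter. Without the filter it was higher in adult podocytes than in proximal tubule (edgeR adjusted p = 0.000284) but not called against NP (edgeR adjusted p = 0.51). The member nearest Efnb2, an ephrin gene 551 kb away, had 34.9 and 38.2 CPM in P0 podocytes and 10.4, 21.1 and 8.25 CPM in adult podocytes. The 4 Smad2 members are those in the introns of Zbtb7c given above. Notch2 had 1 intronic member, with 14.2 CPM in NP, 13.4 CPM in Podo and 16.8 CPM in both stromal clusters. The stromal list had 2 members (3.85%), with 1 of them (Foxd1, also counted among the podocyte factors) higher in each adult comparison without the filter. The tubule list had 1 (1.79%), beside Ppargc1a, which was higher than in LOH and NP but not called against proximal tubule without the filter (edgeR adjusted p = 0.152).

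The rule read 4 of the 13 cell types, so openness in the other 9 is a measurement that it did not fix. At P0, 396 members were highest in NP and 288 in Podo. A stromal cluster was highest at 81 (38 in the first and 43 in the second), endothelium at 30 and immune nuclei at 15. At least 0.5 times the NP value was reached in the first stromal cluster by 223 members (27.2%), in the second by 218 (26.6%), and in endothelium by 120 (14.6%). Of all NP-open peaks 67.4%, 65.7% and 61.9% reached it in these 3 types. In distal convoluted tubule and connecting tubule it was reached by 20 and 22 members, against 66.1% and 72.4% of NP-open peaks. In all, 389 (47.4%) reached it in at least 1 of the 9 types. In all 9 types 284 (34.6%) were at most 0.333 times the NP value, against 61.0% of the peaks closed in Podo, PCT and LOH and 5.90% of those kept in LOH. No share of NP-open peaks was counted for the 389, the 284 or the counts by highest type, so these are descriptions. They also rest on few calls in small clusters. There 10 CPM stood for 7.56 open calls in intercalated cells, 7.87 in distal convoluted tubule and 6.01 in immune nuclei. Low in PCT did not always mean low in the straight segment, where 748 of the 821 were at most 0.333 times the NP value.

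The stromal and endothelial levels were compared with the mean of distal convoluted tubule, connecting tubule and principal cells at P0 over the 2 samples. Without a filter, stroma was higher at 499 of the 821 members and lower at 9, beside 31.3% and 7.27% of all peaks, and endothelium was higher at 242 and lower at 14, beside 21.4% and 5.67%. Among the NP-open peaks stroma was higher at 62.6% and lower at 9.98%, and endothelium higher at 55.2% and lower at 9.56%, beside 60.8% and 29.5% of members higher. How members stood against the NP-open peaks depended on the filter and the scaling. Of the 473 members that passed the filter, 356 were higher in stroma and 15 lower (41.5% and 22% of all peaks tested), and 192 were higher in endothelium and 36 lower (33.7% and 21.1%). Members that passed did so through a cell type in which they were high, so these counts are no independent support. Higher calls were then 75.3% of members tested against 50.3% of NP-open peaks tested for stroma, and 40.6% against 44.9% for endothelium. Both types were higher at 160 (33.8% of those tested, against 21.1% of all peaks tested and 34.6% of the NP-open peaks tested). Without the filter both were higher at 204 of the 821 (24.8%, against 12.4% of all peaks and 48.5% of NP-open peaks). With another scaling of the samples (DESeq2 size factors) the median of all peaks moved by -0.25 (log2) for stroma and -0.32 for endothelium, and the share of calls that were higher, over all peaks, went from 65.3% to 57.4% and from 61.4% to 50.5%. Under that scaling stroma was higher at 324 members and lower at 23 (34.1% and 25.3% of all peaks tested), and endothelium was higher at 168 and lower at 53 (26% and 25.6%). Higher calls were 68.5% of members tested against 29.8% of NP-open peaks tested for stroma and 35.5% against 21.2% for endothelium.

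The fold changes of the stromal and endothelial members named next are from the fit with the filter, which they passed through a type in which they were high. The leading ones were also picked for that fold, so their p-values are no independent support. On the stromal side the first was an intron of Rad51b, a DNA repair gene (chr12:79707417-79708836). It had 14.6 and 13.05 CPM in the first stromal cluster of the 2 samples and 25.9 and 24.99 CPM in the second, at or above its 12.2 CPM in podocytes (log2 fold change over the distal types 6.15, SE 0.45, edgeR adjusted p = 1.22e-41). The Plxnc1 member had 35.9 and 34.4 CPM in the second stromal cluster, and the Ppargc1a member 25.3 and 22.4 CPM. The Meis1 member, 8.37 kb into a homeobox gene of the stroma, had 17.8 and 10.4 CPM in P0 podocytes and no open call in adult podocytes, and was higher in stroma (5.35, SE 0.53, edgeR adjusted p = 1.09e-22). The members lower in stroma by most lay in Phkb, Zbtb20 and Fancc, at -2.87, -2.35 and -1.94.

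The endothelial side was led by a member beside Zfp64 (chr2:169007809-169009203) with 35.4 and 35.8 CPM in endothelium against 5.76 CPM in podocytes (7.24, SE 0.42, edgeR adjusted p = 1.39e-65). It was followed by members beside Pja1 and Erg28, the latter with 34.2 and 29.3 CPM. The Bbox1 member, among the 10 highest in podocytes, also had 34.0 and 37.3 CPM in endothelium. Among those 10, without the filter, stroma was called higher than the distal types at the Pcsk6, Foxl1, Gmds, Trib2, Gsap, Foxd2 and Myl7 members. Log2 fold changes ran from 1.60 (Gmds) to 5.04 (Pcsk6). Stroma was not called higher at the Bbox1, Srgap1 and Lpin2 members. Endothelium was called higher at the Foxl1 (2.70), Trib2 (3.49) and Bbox1 (2.49) members, lower at Lpin2 (-1.68), and was not called at the others. Across the set, 141 members were higher in a stromal cluster than in podocytes and 56 were higher in endothelium. No share of NP-open peaks was counted beside these, so they are descriptions.

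Position and sequence were not used by the rule. Each peak was counted once, in the order exon, intron, 5 kb upstream of a transcript, distal. Of the members 413 (50.3%) lay in introns, 254 (30.9%) were distal, 124 (15.1%) overlapped exons and 30 (3.65%) lay upstream without touching an exon or intron. With the upstream stretch counted first, 146 members (17.8%) overlapped it. The NP-open peaks as a whole were 59.7% exonic, 21.1% intronic and 15.7% distal. All peaks of the series were 46.7% intronic, 31.6% distal and 16.8% exonic, near the shares of the members. A transcript start was covered by 44 members (5.36%), against 52.3% of NP-open peaks and 7.43% of all peaks. The median member was 805 bp wide, 12.1 kb from the nearest transcript start and 48.7 kb from the nearest coding start. Over all peaks these medians were 414 bp, 10.6 kb and 40.7 kb. Members were spread over 734 nearest genes, 70 of which had at least 2, and 175 members (21.3%) lay within 100 kb of another. Besides Smad2, the genes nearest to 4 members each were 1700018B08Rik, Cxcl12, Gse1 and Tshz1.

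Motifs were searched on both strands in the central 300 bp of every peak. GTGGGNG was found in 48.8% of members (exact Clopper-Pearson 95% interval 45.4 to 52.3), against 31.7% of the peaks closed in Podo, PCT and LOH, 33.4% of those kept in LOH, 37.0% of NP-open peaks and 22.7% of all peaks. Its share was near equal whether the Podo to NP ratio was below 1, up to 2 or above, at 47.8%, 51.0% and 48.9%. The second WT1-type word, GGGNGGGG, was in 21.1% of members, fewer than the 34.2% of NP-open peaks, many of which cover gene starts. The 2 words share letters and can overlap, and 56.03% of members held at least 1 of them against 53.8% of NP-open peaks and 30.4% of all peaks. CAGCTG was in 31.3% of members against 18.6%, 20.9%, 20.3% and 19.8% in the same 4 sets, and 15.5% of members held both CAGCTG and GTGGGNG against 5.64%, 7.42%, 7.44% and 4.81%. The homeobox word TAATTA was in 12.5% of members against 8.78%, 8.26%, 4.36% and 8.87% in these 4 sets. The MAF-type word TGCTGA was in 30.6% against 23.7%, 22.6%, 19.3% and 24.2%. The forkhead word TGTTTAC was in 7.19% (exact 95% interval 5.52 to 9.17) against 4.30%, 6.41%, 3.12% and 5.09%. Its share in the peaks kept in LOH thus lay within the interval of the members. The word TCANGTTTC, bound by the family of the progenitor factor Six2, was in 1.71% of members, beside 3.53% of the peaks closed in all 3 lineages and 1.51% of all peaks. A match is a description of these letters and no measure of binding. Of the members 40 (4.87%) held none of the 18 words searched.

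**Figure D5:**
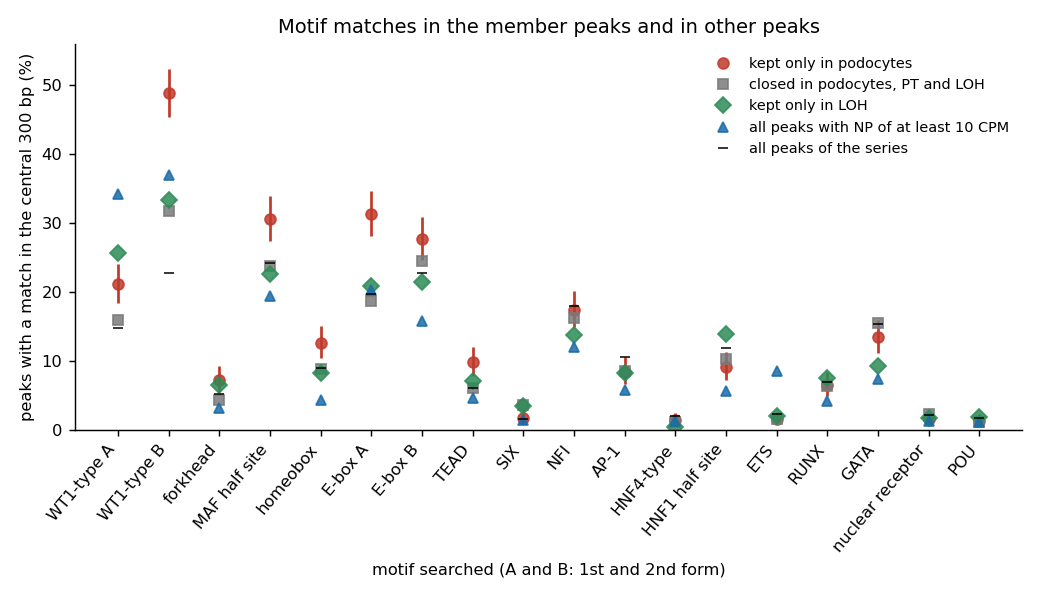
Share of peaks (percent, y axis) whose central 300 bp hold each motif (x axis), for the 821 members, the peaks closed in Podo, PCT and LOH, those kept in LOH, the NP-open peaks and all peaks. Labels A and B mark the first and second word of a kind (WT1-type A for GGGNGGGG); WT1-type B stands at 48.8% in members and E-box A at 31.3%.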

How the data were processed

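Single-nucleus ATAC-seq of 2 P0, 1 P21 and 2 P56 kidney samples was used. Per the labels, the authors used Cell Ranger ATAC (1.1.0) and MACS2 on mm10, with peaks called per cell type and merged, and deposited a binary peak by nucleus table of counts (1 for open), peak positions and cluster labels. Cell types are those of that annotation, with no doublet caller added here. No other deposited data (single-cell RNA, bulk ATAC) were used.

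Open calls were summed per sample and cell type. The rule read the cluster named PT at P0, here PCT, whereas the analysis plan had summed both proximal clusters (820 peaks, 814 shared); the adult tests summed both. Members and lists were chosen with earlier results of these data known. Sums from at least 20 nuclei were tested in edgeR 4.0.16 (quasi-likelihood, TMM, minimum count 10, Benjamini-Hochberg over all peaks at 0.05), with sample as a block because its cell types come from the same library. DESeq2 1.42.0 was an alternative. The edgeR script was tested on simulated data. Gene positions came from the GRCm38 annotation. Named members were the 10 highest in podocytes at P0, up to 4 per gene list, the genes with most members, the largest calls and those at the limits of the rule. The list members at Itga3, Plce1, Nr2f2, Osr2, Vegfa, Efnb2 and Notch2 lie beyond 4 per list and were named after their values were seen. So do the Foxl1 member at 53.4 kb and the Wt1 member at 5.92 kb. Intervals cover counting error only, and nuclei were not treated as replicates.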

Additional observations from a re-analysis of the deposited data

Results flagged for a closer look

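Podocytes were below NP in both P0 samples and above NP in all 3 adult samples at 95 members (11.6%, against 3.34% of NP-open peaks and 0.841% of all peaks). Taken singly, the first condition held for 409 members (49.8%, against 44.6% of NP-open peaks) and the second for 388 (47.3%, against 18.9%). The P0 levels of both types were used to choose the members, so the first condition is a description. The difference between the ages was not tested, and the adult nuclei annotated NP had lower levels at the starts of NP marker genes than the P0 NP nuclei.

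A cluster that the annotation sets apart from proximal tubule (PT_out), which entered no comparison above, had median member levels of 3.80 CPM in P0 sample 1 and 1.81 CPM in P0 sample 2. These are 2 and 1 open calls in clusters of 525964 and 551560 open calls, under 3 counts (5.70 and 5.44 CPM), so no level can be read from them.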

How the results depend on the processing

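The number of members depended on the limits and the scaling. It was 211 with a minimum of 20 CPM, 2071 with 5 CPM and 476 with shares of nuclei in place of CPM. With TMM scaling it was 886, of which 659 were shared, and with nuclei thinned to 1000 open peaks 1025, of which 525 were shared. From a single P0 sample the rule gave 836 to 928 members, 656 to 659 of them shared.

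Without each adult sample in turn, 265 to 372 members were higher in podocytes than in proximal tubule, 248 to 358 than in LOH and 137 to 212 than in NP, the lowest without P56 sample 1. These are counts with the filter, which left 288 to 419 members tested. Without the filter 444 were higher than in proximal tubule. Without the replicate block, which pairs cell types of one sample, the counts were 279, 281 and 216, and 356 for stroma and 192 for endothelium, so no count moved by over 1.5 times. Leaving out a P0 sample from the stromal and endothelial comparisons left no residual degrees of freedom, and this was not run.

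In whole peaks, which differ in width, GTGGGNG was found in 76.7% of members against 71.5% of NP-open peaks. TGTTTAC was in 15.5% of members against 15.7% of the peaks kept in LOH. Of members GGGNGGGG was in 44.3%, TGCTGA in 55.4%, TAATTA in 24.7%, CAGCTG in 56.5%, CATCTG in 58.0%, ACATTCC in 19.98%, TCANGTTTC in 5.36%, the NFI word in 40.8%, AP-1 in 22.7%, HNF4 in 2.80%, HNF1 in 20.95%, ETS in 4.99%, RUNX in 15.6%, GATA in 35.6%, the nuclear receptor word in 4.26% and POU in 3.17%. With promoters taken before other elements, 17.8% of members were promoters, 7.31% exons and 44.0% introns, and with promoters of 2 kb 2.07% were promoters. From coding starts only the median distance was 48.7 kb. Across these settings 42 values stayed within 1.5 times the main one, for a count, or within its exact 95% interval, for a share, and 28 moved. The values are counts, shares and 1 distance, which have no direction. The members' share of higher calls against that of NP-open peaks did turn, for stroma with the filter and for endothelium with the scaling.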
